A study of Rattus norvegicus with 48 samples.

Results

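Small RNA-Seq of the ventral striatum was used to ask how close ethanol-exposed rats with social enrichment (ES) came to control rats without it (CN). The 12 libraries of the comparison, 6 from each group, were taken by the treatment, housing and region in their labels, out of 24 libraries of this region and 48 libraries in the series. ES rats were Long Evans offspring of dams injected i.p. with ethanol in mid-gestation, and after weaning they lived with unfamiliar rats of their own age and sex whose dams were untreated. CN rats were born to dams injected with saline and lived with littermates of their own sex. Rats of both groups were taken on postnatal day 42 after a test of social interaction, under ketamine and xylazine, and each library came from RNA pooled from several rats of one sex. Each group held 3 pools of females (F1 to F3) and 3 pools of males (M1 to M3), so the p-values measure the spread between pools. Ethanol-exposed rats without enrichment (EN) and saline-injected rats with enrichment (CS) supplied no library to the comparison, and served to estimate the spread. Since prenatal treatment and housing both differed between ES and CN, their parts in a difference cannot be told apart here.

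A miRNA is a short RNA cut from a hairpin precursor, and it guides a silencing complex to mRNAs that pair with its seed, the bases near its 5′ end. Mature miRNAs with the same seed share many predicted targets, so a family is read by its seed. In striatal neurons miRNAs act on mRNAs for synaptic and signaling proteins, and several, among them miR-9 and the miR-181 family, have been studied for responses to alcohol or dopamine.

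Mature sequences of the miRNAs on which the results turn were taken from RefSeq (GRCr8), with the seed (bases 2 to 8) in capitals. They are miRNAs whose groups stood apart or whose p was among the smallest of the abundant names. Only miR-34c-5p is shown for another reason, the seed it shares with miR-34a-5p.
miR-133b-3p: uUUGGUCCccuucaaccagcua
miR-540-3p: aGGUCAGAggucgauccugggc
miR-431: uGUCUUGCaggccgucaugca
miR-487b-3p: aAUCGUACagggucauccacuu
miR-148a-3p: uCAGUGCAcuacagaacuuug
miR-148a-5p: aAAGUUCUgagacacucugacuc
miR-3552: aGGCUGCAggcccacuucccu
miR-140-5p: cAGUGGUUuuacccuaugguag
miR-323-5p: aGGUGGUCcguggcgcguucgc
miR-382-3p: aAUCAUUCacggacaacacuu
miR-382-5p: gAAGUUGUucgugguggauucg
let-7c-5p: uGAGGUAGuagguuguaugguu
miR-98-5p: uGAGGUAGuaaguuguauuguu
miR-34a-5p: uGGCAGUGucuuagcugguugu
miR-34c-5p: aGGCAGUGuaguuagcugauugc
miR-375-3p: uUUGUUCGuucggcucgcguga

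A sequence was found for 476 of the 514 mature names tested. Of those shown, miR-540-3p (chr6:134321475-134321496), miR-431 (chr6:134326468-134326488), miR-323-5p (chr6:134546959-134546980), miR-487b-3p (chr6:134562939-134562960) and miR-382-3p (chr6:134569992-134570012) lie on the + strand of one stretch of chromosome 6, the imprinted cluster expressed from the maternal chromosome. let-7c-5p and miR-98-5p share their seed and differ at positions counted from the 5′ end of let-7c-5p by G11A and G19U. miR-34a-5p and miR-34c-5p share another seed, and miR-133b-3p differs from miR-133a-3p only at its last base (G22A).

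The libraries held 790733 to 1229472 mature reads in ES and 895311 to 1277697 in CN, as read from the smallest step between values. A floor of 3 reads, which covers counting error only, corresponded to 2.44 to 3.79 RPM for mature names in ES and 2.35 to 3.35 RPM in CN. Mature and precursor names were scaled to 1000000 RPM each, so a level is compared only within its kind. The authors gel-purified short RNAs before sequencing. A precursor name therefore counts short reads assigned to its hairpin, and its value is not a level of the hairpin RNA itself. The 10 most abundant mature miRNAs took 58.0% to 63.1% of the mature RPM of a library. Of the neuronal markers, miR-124-3p was at 1699 to 2642 RPM in ES and 1892 to 2385 RPM in CN, and miR-9a-5p at 22734 to 35993 and 27622 to 37691 RPM. These markers fit brain tissue, and no marker used here separates the ventral striatum from other brain regions. In pooled tissue, fewer cells of a type and less RNA per cell cannot be told apart.

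The enriched ethanol-exposed rats lay near the control level for most miRNAs. Of 933 names tested with limma on log2(RPM + 1), 0 (0%) had an adjusted p under 0.05, and the smallest adjusted p was 0.286. An unadjusted limma p under 0.05 was found for 30 names (3.22%), of which 15 were higher in ES (1.61%) and 15 lower (1.61%). Two-sided exact permutation tests of RPM gave 45 names with p under 0.05, 15 higher and 30 lower, with a smallest adjusted p of 0.505. Of the 30 names, 11 had a mean of at least 10 RPM over the region, and 6 had no library above the floor in either group. In females and males 28 had the same sign. Choosing names by a contrast averaged over the sexes favors such a result, so it is no replication between them.

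Closeness was measured by the 95% limma interval of the difference. Among the 596 names with a mean of at least 10 RPM, the interval lay within 2-fold of the control level for 540 (90.6%) and within 1.5-fold for 379 (63.6%). Over all 933 names it lay within 2-fold for 693 (74.3%), a share that includes names near 0 whose differences are small on a log2(RPM + 1) scale. The median absolute difference from CN was 0.14 (log2) for ES, beside 0.12 for EN and 0.13 for CS, all measured against the same control libraries. The count of 30 names depended on single libraries, and ran from 24 without CN replicate F1 to 51 without CN replicate M3, with 48 without ES replicate F3. Of the names counted, 29 were higher and 13 lower without ES replicate F1, and 11 higher and 37 lower without ES replicate F3.

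**Figure D1:**
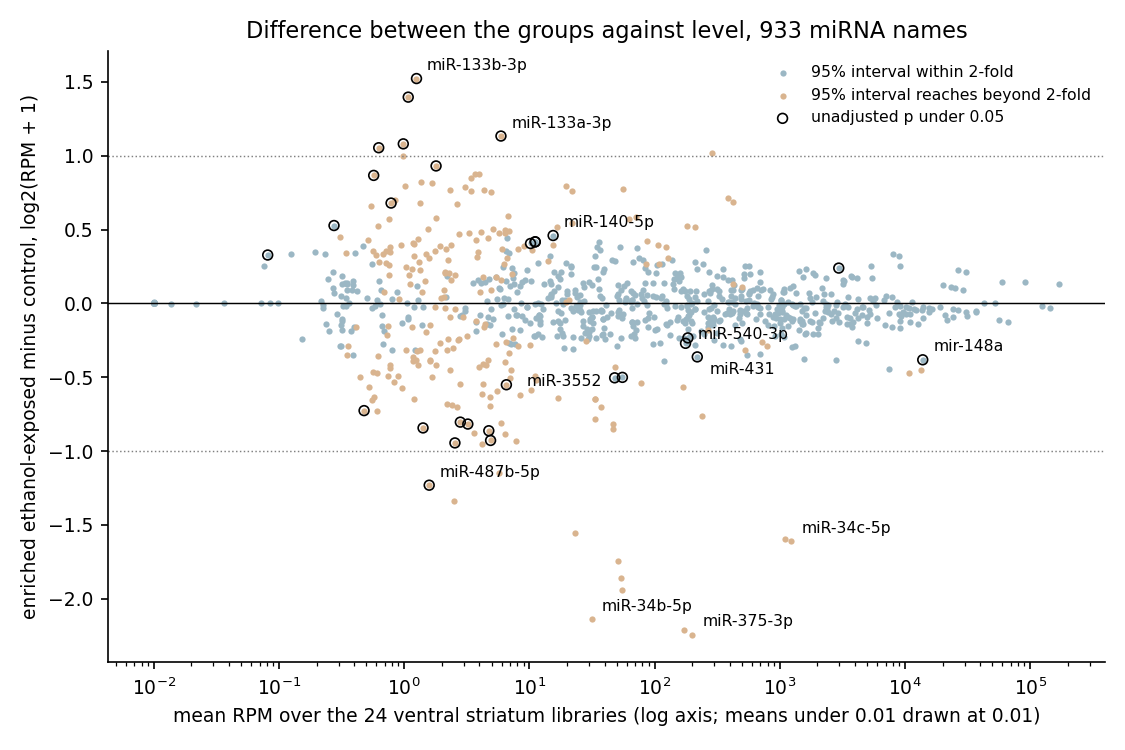
Each point is a miRNA name, plotted by its mean RPM over the 24 libraries (log axis) and the difference between ES and CN in log2(RPM + 1), with colors for whether the 95% interval lies within 2-fold and rings for an unadjusted limma p under 0.05. Points narrow around 0 as the level goes up, and 540 of the 596 names with a mean of at least 10 RPM have an interval within 2-fold.

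The 10 most abundant mature miRNAs differed by between -0.13 and 0.21 (log2). miR-181a-5p, a regulator of synaptic mRNAs, ran from 136322 RPM through a median of 184170 to 217165 in ES, and from 145568 through 167419 to 176246 in CN. Its difference was 0.13 ± 0.12 (log2, SE). miR-127-3p of the imprinted cluster ran from 116432 through 143842 to 163014 RPM in ES and from 112129 through 148011 to 164139 in CN, a difference of -0.03 ± 0.16. For both miRNAs the ES range covered most of the CN range. miR-143-3p, a miRNA of smooth muscle and other mesenchymal cells, had the largest difference of the 10, at 0.21 ± 0.17, and miR-26a-5p had the lowest, at -0.13 ± 0.13. None of the 10 most abundant mature names had an unadjusted limma p under 0.05.

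Few names had groups that did not overlap. There were 2 such names higher in ES (0.214% of 933) and 2 lower (0.214%), each pair being a mature miRNA and its own precursor, which were counted from largely the same reads.

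miR-133b-3p, one of the muscle miRNAs that is also expressed in dopamine neurons of the midbrain, had the smallest p. In ES it was at 2.53, 4.88 and 3.08 RPM in the females and 0.972, 1.96 and 1.13 RPM in the males, and in CN it was at 0.872 RPM in replicate F1 and at 0 in the other 5 libraries. Every ES library was thus above every CN library in RPM, but only 1 of the 12 libraries, ES replicate F2, was above the floor of 3 reads. ES replicates M1 and M3 and CN replicate F1 held 1 read each, so they stood apart in RPM only through library depth. The lack of overlap between the groups rests on this. The difference was 1.52 ± 0.36 (limma, adjusted p = 0.286; exact permutation p = 0.00216, the smallest that 6 libraries against 6 allow). Over the alternative settings tried with all libraries, this difference ran from 0.29 to 4.06, so its size depends on the processing. In reads, 15 in ES stood against 1 in CN, a ratio of 16.1 with a 95% counting interval from 2.48 to 679. A limma fit to the 12 libraries alone gave miR-133b-3p and mir-133b an adjusted p of 0.0127, the only calls of that fit, and with the replicate number as a block the adjusted p was 0.759.

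The other muscle miRNAs were set beside it. miR-133a-3p, whose reads cannot be told from those of miR-133b-3p without the last base, ran from 5.06 through 8.25 to 11.4 RPM in ES and from 0 through 3.28 to 8.94 in CN (1.13 ± 0.52, limma adjusted p = 0.975). miR-1b ran from 11.4 through 26.3 to 39.9 RPM in ES and from 4.70 through 11.7 to 45.7 in CN, a difference of 0.76 ± 0.50. The groups overlapped for both. Of the 7 muscle names, which include miR-133b-3p itself, 6 were tested, with a median difference of 0.72, beside -0.01 over all names. At an unadjusted p under 0.05, 2 were higher, miR-133b-3p and miR-133a-3p, and 0 lower, beside 1.61% of all names in each direction. Since miR-133b-3p was picked by its p, the count and the median are no separate evidence. The summed level of the 7 names was 20.2 to 60.2 RPM in ES and 10.2 to 53.1 RPM in CN. Of the defining markers, miR-1-3p reached 2.94 RPM in ES and 1.06 RPM in CN, and miR-206-3p reached 4.11 and 1.57 RPM, and both were at 0 in some libraries of each group. The part of muscle or vessel tissue in the miR-133 values was not tested.

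miR-540-3p, of the imprinted cluster, was lower in every ES library than in any CN library. It was at 171, 168 and 159 RPM in the ES females and 177, 136 and 166 RPM in the ES males, against 193, 183 and 194 RPM in the CN females and 182, 235 and 192 RPM in the CN males. The gap between the groups was narrow, with 177 RPM as the highest ES value and 182 RPM as the lowest CN value, and after median-ratio rescaling the groups overlapped (135.6 to 182.9 and 180.1 to 229.0). The difference was -0.27 ± 0.12 (limma, adjusted p = 0.975; exact permutation p = 0.00216). Its precursor mir-540 differed by -0.23 ± 0.11. The other arm, miR-540-5p, overlapped between the groups at 28.5 to 44.3 and 25.7 to 54.2 RPM (-0.11 ± 0.16).

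**Figure D2:**
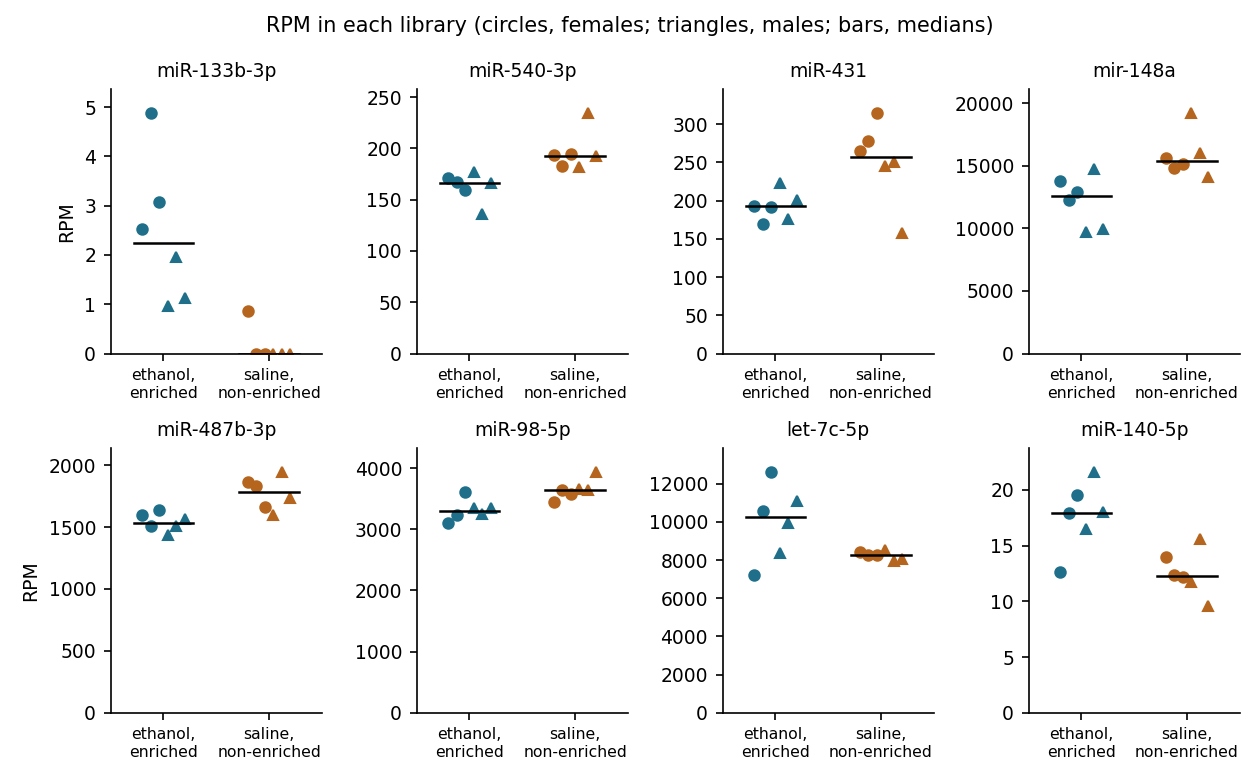
RPM in each of the 12 libraries for 8 miRNAs, from 0 on each axis, with circles for females, triangles for males and bars for group medians. miR-133b-3p and miR-540-3p are the mature names whose groups do not overlap, and the ES medians are below the CN medians for miR-431, mir-148a, miR-487b-3p and miR-98-5p.

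Among mature names with a mean of at least 10 RPM and one direction in both sexes, the 8 lower and 8 higher in ES with the smallest p were described. None of them passed adjustment, so their values are given as measured levels. Lower in ES with the smallest p was miR-431, a neighbor of miR-540 in the imprinted cluster. It ran from 169 through 192 to 223 RPM in ES and from 157 through 258 to 315 in CN (-0.36 ± 0.13, limma adjusted p = 0.975). CN replicate M3, at 157 RPM, lay under every ES library, and the other 5 CN libraries lay above them all. The difference was -0.63 in females and -0.10 in males (limma adjusted p = 1 for the difference between the sexes). The precursor name mir-431, at 582 to 1111 RPM in ES and 705 to 1092 RPM in CN, did not share it (-0.07 ± 0.19). In ES mir-431 held 935 reads on average, beside 189 for miR-431, so it also counted reads not given to miR-431.

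miR-487b-3p, a further member of this cluster, ran from 1438 through 1537 to 1638 RPM in ES and from 1597 through 1783 to 1942 in CN (-0.20 ± 0.09). The groups touched at 1597 to 1638 RPM. Its scarce 5p arm miR-487b-5p had 3 reads in all ES libraries together and 16 in all CN libraries, a ratio of 0.202 with a counting interval from 0.0377 to 0.705. That interval leaves out the spread between pools. The limma difference was -1.23 ± 0.39 (limma adjusted p = 0.975), and 0 ES and 2 CN libraries were above the floor. miR-299a-3p, from the same cluster, was at 2.26 to 8.13 RPM in ES and 4.36 to 11.2 RPM in CN (-0.55 ± 0.22), with 0.01 in females and -1.12 in males.

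Members of the cluster were also found on the other side. miR-323-5p ran from 10.7 through 11.9 to 16.4 RPM in ES and from 6.70 through 8.32 to 13.2 in CN (0.41 ± 0.18), whereas its precursor mir-323 was at 0.05 ± 0.08. miR-382-3p ran from 7.59 through 12.1 to 13.6 RPM in ES and from 6.10 through 8.47 to 11.3 in CN (0.42 ± 0.18), and miR-382-5p differed by 0.25 ± 0.15. miR-3592 had the values of miR-382-3p in every library. It lies on the opposite strand, 21 bases of it pair with miR-382-3p, and the deposited values do not tell the strands apart. Over the cluster, 76 of 83 names were tested, 3 were higher and 4 lower with an unadjusted p under 0.05, beside 1.61% of all names in each direction, and the median difference was -0.02. Of its 56 names with a mean of at least 10 RPM, 54 had an interval within 2-fold.

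The miR-148a hairpin, known for its place in immune and liver cells and for pairing with the mRNA of DNA methyltransferase 1, was lower in ES. The precursor mir-148a ran from 9670 through 12585 to 14746 RPM in ES and from 14074 through 15381 to 19215 in CN (-0.38 ± 0.14, limma adjusted p = 0.975). Only ES replicate M2 reached into the CN range. miR-148a-5p differed by -0.29 ± 0.14 and miR-148a-3p by -0.28 ± 0.14, while miR-148b-3p, which shares the seed of miR-148a-3p, differed by -0.06 ± 0.09. In the amygdala mir-148a was at 8250 to 9616 RPM in ES and 9971 to 11104 RPM in CN, a difference of -0.22 ± 0.09 (limma adjusted p = 1). Those libraries came from the same rats and are not independent of the ones described here.

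miR-3552, whose function is little known, ran from 37.9 through 44.7 to 54.9 RPM in ES and from 47.1 through 60.6 to 94.3 in CN (-0.50 ± 0.21), and its precursor differed by -0.50 ± 0.21. miR-140-5p, best known from cartilage, ran from 12.6 through 17.97 to 21.6 RPM in ES and from 9.56 through 12.3 to 15.6 in CN (0.46 ± 0.20, limma adjusted p = 0.975). The groups overlapped for both miRNAs, and the precursor mir-140 differed by 0.04 ± 0.12. miR-873-3p, at 110 to 147 RPM in ES and 67.3 to 143 RPM in CN, differed by 0.27 ± 0.16.

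The let-7 family, which promotes differentiation, held miRNAs on either side of the control level. let-7c-5p ran from 7238 through 10256 to 12596 RPM in ES and from 7935 through 8245 to 8551 in CN (0.25 ± 0.14). The CN libraries were tightly grouped, and 4 of the 6 ES libraries lay above all of them. Its precursor let-7c-1 differed by 0.24 ± 0.10 (limma adjusted p = 0.975). miR-98-5p, with the same seed, ran from 3095 through 3298 to 3617 RPM in ES and from 3446 through 3644 to 3932 in CN (-0.14 ± 0.07). Of the 9 measured miRNAs with this seed, let-7b-5p and let-7c-5p had positive differences and the other 7 negative ones, down to -0.14. let-7a-5p, for one, was at 6341 to 9487 RPM in ES (-0.06 ± 0.13). All 15 let-7 family names with a mean of at least 10 RPM had an interval within 2-fold. Of 21 names tested in the family, 1 was higher and 1 lower at an unadjusted p under 0.05, beside 1.61% of all names in each direction. The median was -0.03. The higher name was miR-98-3p, the scarce other arm of the miR-98 hairpin. It had 8 reads in all ES libraries together and 0 in CN, with no library above the floor (1.05 ± 0.29, limma adjusted p = 0.665).

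Members of the seed group of miR-34a-5p also stood on both sides. miR-34a-5p, a target of p53, ran from 144 through 198 to 284 RPM in ES and from 97.0 through 132 to 230 in CN (0.52 ± 0.32). miR-34c-5p ran from 141 through 249 to 1862 RPM in ES and from 211 through 1452 to 5215 in CN (-1.61 ± 0.98, and -0.99 without CN replicate M1). miR-34b-5p (-2.14 ± 1.08) and miR-449a-5p (-1.94 ± 1.18, and -1.28 without CN replicate M1) were likewise highest in replicates F3 and M1 among the ES libraries. These last 3 are miRNAs of cells with motile cilia, such as those lining the ventricles, and none of them had an interval within 2-fold.

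miR-375-3p, a miRNA of endocrine cells and the pituitary, varied likewise. It was at 8.85, 17.9 and 278 RPM in the ES females and 296, 13.7 and 15.8 RPM in the ES males, and at 580, 328 and 108 RPM in the CN females and 696, 103 and 27.6 RPM in the CN males (-2.24 ± 1.11, limma adjusted p = 0.975). The 4 low ES libraries were under the lowest CN library, and the other 2, ES replicates F3 and M1, lay among the CN values. In the amygdala the difference was 2.20 ± 1.14 in the other direction, with 61.7 to 2221 RPM in ES and 5.09 to 472 RPM in CN (limma adjusted p = 1 for the difference between regions).

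Not every name listed for the choroid plexus and ciliated cells was as variable. miR-204-5p, abundant in the choroid plexus, was at 3903 to 6958 RPM in ES and 4355 to 6924 RPM in CN (0.01 ± 0.16). The summed level of the 11 choroid plexus and ciliated cell names was 4674 to 8990 RPM in ES and 5805 to 12479 RPM in CN, with 0 names higher and 0 lower at an unadjusted p under 0.05 and a median of -0.35. For the neuroendocrine names, of which 5 were tested, the sum was 7338 to 14436 RPM in ES and 10129 to 17833 RPM in CN, with 0 higher and 0 lower and a median of -0.38. Most of that sum was miR-7a-5p, which ran from 6314 through 9605 to 12395 RPM in ES and from 8734 through 13911 to 15376 in CN (-0.47 ± 0.27). The part of the tissue taken with each pool in these values was not tested.

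**Figure D3:**
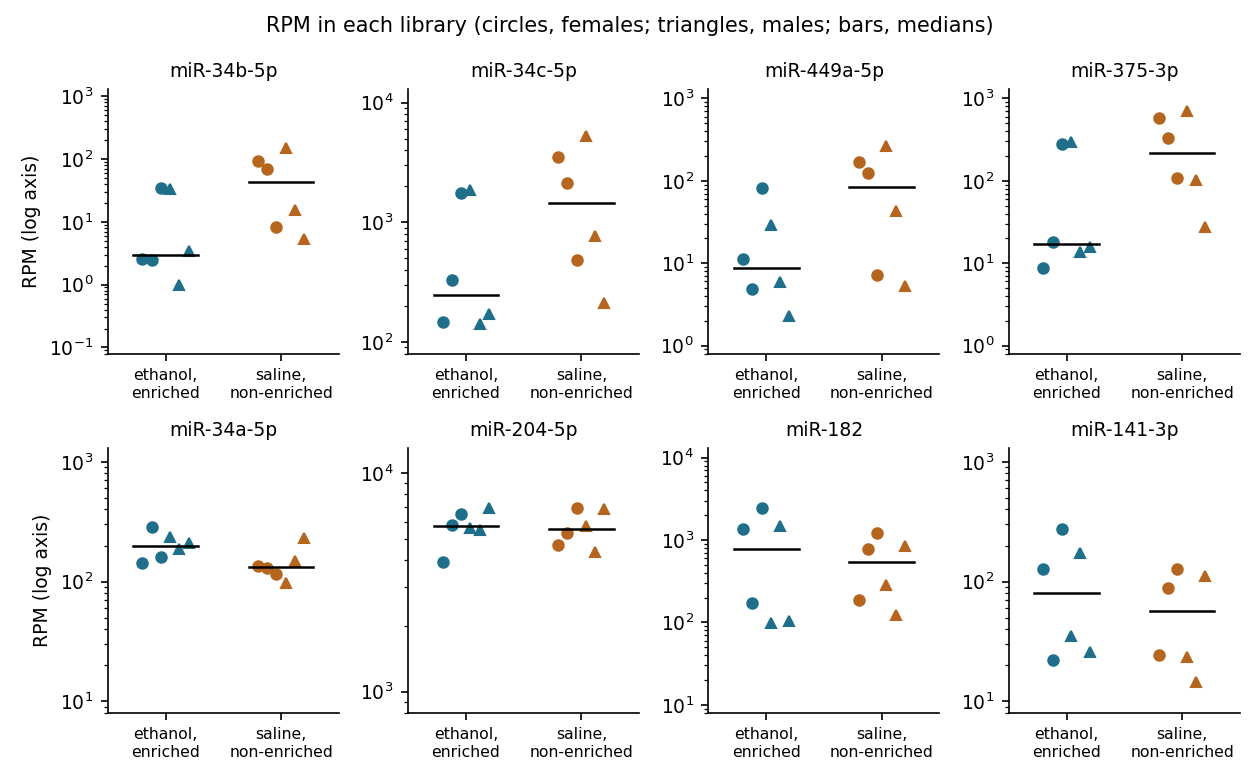
RPM in each of the 12 libraries on log axes, with circles for females, triangles for males and bars for group medians. Values of miR-34b-5p, miR-34c-5p, miR-449a-5p and miR-375-3p spread over more than a factor of 10 within a group, with ES replicates F3 and M1 at the top of the ES group, while miR-34a-5p and miR-204-5p stay within a narrow range.

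Names of the miR-200 family and the miR-183 cluster, known from olfactory and other sensory epithelia, were as variable. miR-182 ran from 97.2 through 774 to 2438 RPM in ES and from 124 through 536 to 1216 in CN (0.11 ± 0.80), and miR-141-3p from 21.96 through 80.7 to 274 and from 14.5 through 56.3 to 126 (0.58 ± 0.70). The difference for miR-141-3p was 0.17 without ES replicate M2 and 1.09 without ES replicate F2. ES replicates F1, F3 and M2 were the high libraries of that group for both. In the miR-200 family 4 of 7 names were tested and in the miR-183 cluster 3 of 4, with 0 higher and 0 lower at an unadjusted p under 0.05, and their medians were 0.47 and 0.01. miR-200a-3p ranged from 0 to 143 RPM in ES, and its difference of 0.01 ± 1.19 became -0.56 with a pseudocount of 0.1 and 1.16 in a three-way model on unlogged RPM.

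Lists for neurons and for miRNA families were described in the same way. Neuron-enriched names (16 tested) had a median of -0.07, activity-regulated names (9) -0.06, the miR-30 family (11) -0.0026 and the miR-29 family (6) -0.13, with 0 names higher and 0 lower at an unadjusted p under 0.05 in each. The miR-181 family (8) had a median of 0.15 and again 0 names at that p. Names reported elsewhere as sensitive to ethanol (19) had a median of 0.05, with 2 higher and 0 lower at that p, beside 1.61% of all names in each direction. All 11 miR-30 names and all 12 neuron-enriched names with a mean of at least 10 RPM had an interval within 2-fold.

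Over all 933 names, 422 had a difference above 0. The 5 oligodendrocyte names all had positive differences (median 0.32). Of them, 1 was higher and 0 lower at an unadjusted p under 0.05, beside 1.61% of all names in each direction, and 0 passed adjustment. miR-338-3p ran from 6765 through 10381 to 13303 RPM in ES and from 5133 through 8535 to 9286 in CN (0.32 ± 0.24). The 7 vascular and mesenchymal names tested were all positive as well (median 0.21), with miR-143-3p at 27105 to 37066 RPM in ES and 23761 to 30565 RPM in CN (0.21 ± 0.17), and 0 names at that p. The 9 immune and microglial names tested had a median of 0.16 with 0 names at that p, with 8 differences above 0 and 1 below. The latter was miR-142-5p, a miRNA of blood cells and microglia, which was at 159 to 236 RPM in ES and 154 to 233 RPM in CN (-0.04 ± 0.11), while miR-223-3p was at or under 1 read in all 12 libraries. The 4 red blood cell names had a median of 0.08 with 0 names at that p and the liver miRNA miR-122-5p reached at most 3.05 RPM.

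The study listed names for the effect of ethanol in non-enriched rats of this region, by their difference between EN and CN. These libraries include the CN group, so the list is no independent evidence, and the values are set side by side. Of its 14 names, all tested, 2 were higher and 0 lower in ES than in CN at an unadjusted p under 0.05. The share over all names was 1.61% in each direction, and the median of the 14 names was 0.01. let-7c-2-3p was 0.84 ± 0.39 from CN in EN and 0.02 ± 0.39 in ES, and ran from 3.79 through 14.1 to 37.0 RPM in ES and from 8.50 through 12.9 to 18 in CN. miR-540-5p was at -0.37 in EN and -0.11 in ES.

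Values for other names of that list follow. miR-1247-5p was at -0.83 in EN and -0.81 ± 0.56 in ES, where it ran from 11.4 through 41.0 to 79.1 RPM against 34.6 through 72.5 to 95.6 in CN. miR-489-5p was at -1.08 in EN and -0.88 ± 0.49 in ES. The values of miR-493-3p, with 0 ES and 2 CN libraries above the floor, were -0.93 and -0.69 ± 0.39. let-7c-1 was at 0.22 and 0.24, and miR-133b-3p at 1.05 and 1.52. miR-345-3p was at 0.79 in EN and 0.40 ± 0.29 in ES, where it was 0.13 without CN replicate F3 and 0.57 without CN replicate F1. The values of mir-122, a precursor with 1 library of the 12 above the floor, were -1.27 and -0.65 ± 0.31. Precursors mir-542-1 and mir-1306 were at 0.40 and -0.46 in EN and at 0.11 ± 0.21 and -0.11 ± 0.25 in ES.

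**Figure D4:**
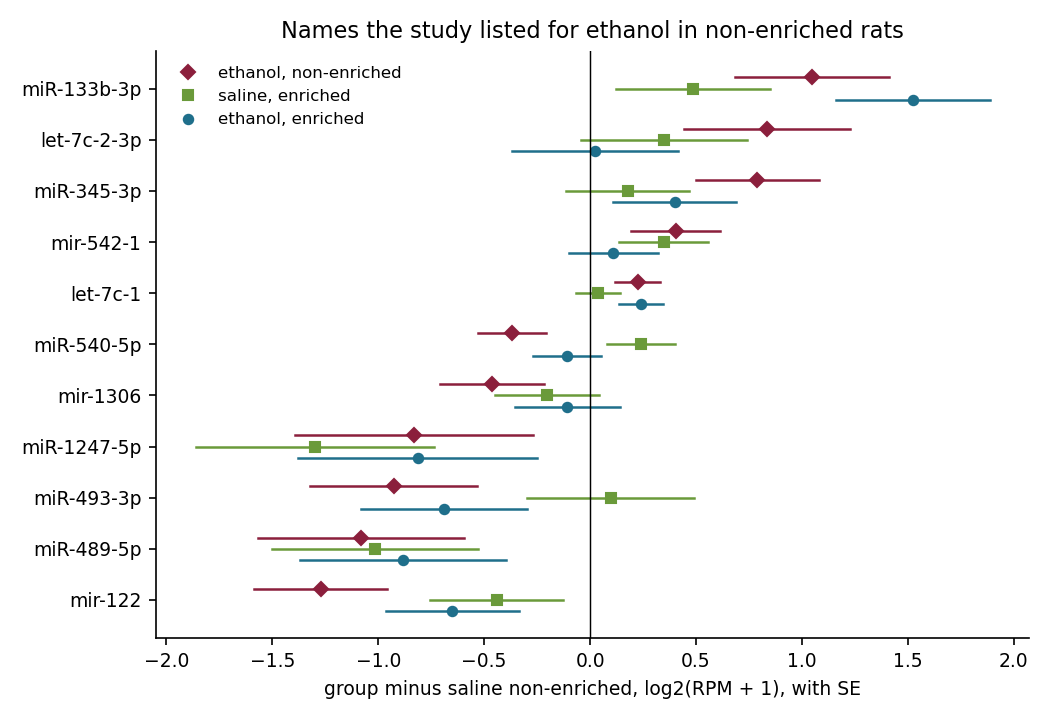
Difference from CN in log2(RPM + 1) with its SE for 11 names of the study's list for ethanol in non-enriched rats, in EN (diamonds), CS (squares) and ES (circles), all against the same CN libraries. ES lies near 0 for let-7c-2-3p and miR-540-5p, beside EN for let-7c-1, miR-1247-5p and miR-489-5p, and past EN for miR-133b-3p.

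The lists for the remaining comparisons of this region use ES or CN libraries too, and are described by their counts. Beside them, 1.61% of all names were higher and 1.61% lower at an unadjusted p under 0.05. In the list for ethanol in enriched rats (16 tested) 1 name was higher and 0 lower at that p (median 0.00). In that for enrichment of saline-injected rats (20 tested) 2 were higher and 1 lower (median 0.04), and in that for enrichment of ethanol-exposed rats (19 of 20 tested) 1 was higher and 1 lower (median 0.03). miR-653-5p, listed for enrichment of saline-injected rats, a miRNA that shares its host gene with miR-489, ran from 13.9 through 23.5 to 54.4 RPM in ES and from 28.2 through 44.7 to 71.3 in CN (-0.79 ± 0.50), and it was at -1.19 in CS.

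Females and males gave no called difference between them. The difference between the sexes in ES against CN had an unadjusted limma p under 0.05 for 16 of 933 names (1.71%) and an adjusted p under 0.05 for 0, the smallest being 1. The count ran from 4 without CN replicate F1 to 29 without ES replicate M2. miR-299a-3p was among the 16 (limma adjusted p = 1), and for let-7c-5p the differences were 0.25 in females and 0.25 in males.

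The same groups were compared in the amygdala. The difference between the regions had an unadjusted limma p under 0.05 for 20 of 915 names (2.19%) and an adjusted p under 0.05 for 0, with a smallest adjusted p of 0.190. That value belonged to miR-133b-3p, which in the amygdala was at 0 to 3.09 RPM in ES and 1.25 to 2.33 RPM in CN (-0.63 ± 0.39), so that its direction was the opposite of that in the ventral striatum. let-7c-5p had the same sign in both regions, at 0.41 ± 0.14 in the amygdala, where it ran from 8708 to 16680 RPM in ES and from 7986 to 12734 RPM in CN. miR-34a-5p was at -0.34 ± 0.24 in the amygdala (limma adjusted p = 1 for the difference between regions), and miR-540-3p was at 0.09 ± 0.17. Both regions came from the same rats, so the 2 sets of libraries are not independent of each other, which the fit between regions ignored. A limma fit with libraries of consecutive number as a block gave 21 names at an unadjusted p under 0.05. Its smallest adjusted p was 0.132.

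**Figure D5:**
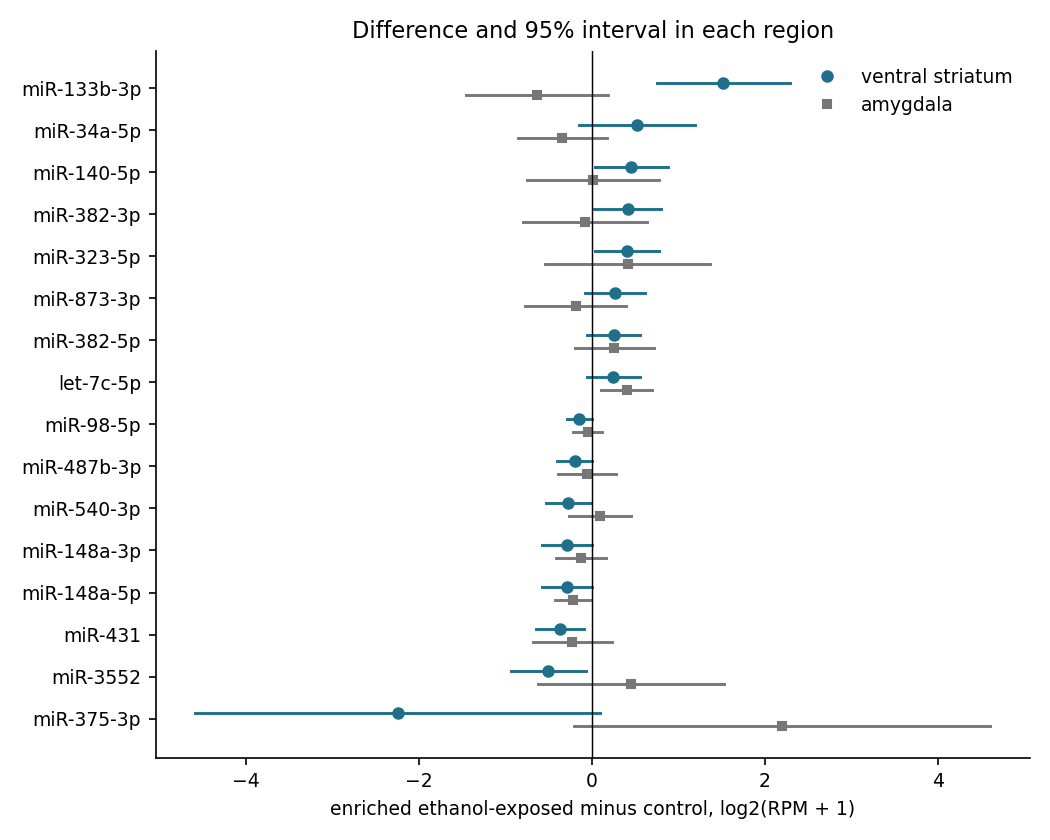
Difference between ES and CN in log2(RPM + 1) with its 95% limma interval in the ventral striatum (circles) and the amygdala (squares), for miR-133b-3p and the named miRNAs with the smallest p. Intervals overlap between the regions except for miR-133b-3p, and those of miR-375-3p are the widest shown.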

How the data were processed

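RNA pools of 48 samples were sequenced with TruSeq small RNA libraries. The authors trimmed low-quality bases, aligned reads with Bowtie to Rn5, quantified them in Partek Flow against miRBase and deposited a signal described as RPM, in which mature and precursor names each add up to 1000000 per library. How reads that fit several names were divided is not given in the sources used here. Fractions of reads occurred, so no test for whole counts was used. Rows sharing a name were added up, giving 1063 names.

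Names above 0 in at least 6 of the 24 libraries of the region (933, of which 514 mature and 419 precursor) were put on a log2(RPM + 1) scale and fitted by limma 3.58.1 (eBayes with trend) in R 4.3.3, with 8 cells of sex and treatment and the contrast averaged over the sexes. Fold changes on this scale are understated for low names. The difference between regions came from 48 libraries with 16 cells. Tests were two-sided, and p-values were adjusted by Benjamini-Hochberg. Exact permutation tests of mean RPM, counting intervals (exact binomial, 95%) and figures were made in Python 3.11.15 (scipy 1.17.1, pandas 2.3.3, numpy 2.4.6). The fit was tested on simulated data.

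Named were all names with an adjusted p under 0.05, the 8 higher and 8 lower mature names with the smallest p at a mean of at least 10 RPM and one sign in both sexes, with their precursors, the 4 names with the smallest p, members of the study's 4 lists, the 10 most abundant, and the 2 most abundant of each list. Cell type markers were named with their lists, and miR-148b-3p and let-7 members for their seeds. Members and lists were chosen with earlier results of these data known. Pseudocounts, filters, scaling, the model, a replicate block and each library left out were tried as alternatives.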

Additional observations from a re-analysis of the deposited data

Results flagged for a closer look

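For 60 names whose differences are given, the ES and CN groups of 6 libraries were checked for a library far from the rest (Dixon's test on log2(RPM + 1)), which chance flags in about 5% of groups, and 6 of 115 groups were flagged. miR-540-3p was at 235 RPM in CN replicate M2, with the other CN libraries at 182 to 194 RPM, and its precursor mir-540 was at 141 RPM in ES replicate M2, with the others at 173 to 184 RPM. miR-431 was at 157 RPM in CN replicate M3 beside 246 to 315 RPM, and mir-431 was at 1092 RPM in CN replicate F3 beside 705 to 827 RPM. let-7a-5p was at 9487 RPM in ES replicate F3 beside 6341 to 6966 RPM. miR-338-3p was at 5133 RPM in CN replicate M1 beside 8270 to 9286 RPM.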

How the results depend on the processing

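With all libraries of the region or of the 2 groups in the fit, 577 values kept their direction and their side of the threshold. miR-200a-3p became -0.56 with a pseudocount of 0.1, a reversal of a value near 0. Keeping only names with a mean of at least 10 RPM left 9 names with an unadjusted limma p under 0.05 (2 higher, 7 lower), 2 names whose groups did not overlap and 2 names differing between the sexes, out of fewer names tested. Mature names alone gave 9 lower names, 2 whose groups did not overlap, 281 within 2-fold and 190 within 1.5-fold among abundant names, 362 within 2-fold in all and 10 differing between the sexes. Median-ratio rescaling left 2 names whose groups did not overlap. The three-way model on unlogged RPM gave 9 names differing between the sexes, and an additive sex term gave 24 lower names. The fit to the 12 libraries gave 50 names (31 lower) and 2 with an adjusted p under 0.05. The cause of these shifts was not tested.

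With a replicate block the count was 43, of which 25 were lower, and 0 passed adjustment. Of 36 pairs of same-numbered libraries, 16 had deviations correlated above 0.1, and the median r was 0.00178. Libraries of different numbers were not compared, so these values do not decide whether the numbers pair the libraries.

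Leaving out 1 library at a time, the count at an unadjusted limma p under 0.05 was 24 to 51 (higher 11 to 29, lower 13 to 37) and the lower names were 32 without CN replicate M3, 27 without CN replicate F3, 25 without ES replicate M2 and 23 without ES replicate M1 or M3. There were 4 to 10 names whose groups did not overlap (10 without ES replicate F3 or CN replicate M3, 7 without CN replicate M1), 4 to 29 differed between the sexes (8 without CN replicate M1, 10 without ES replicate F1), and 0 to 1 passed adjustment in either test. The 1 name for ES against CN was miR-191b, near 0 RPM, without ES replicate M3. Signs changed for let-7c-2-3p (-0.37 to 0.38), miR-124-3p (-0.075 to 0.081), miR-127-3p (-0.099 to 0.035), miR-182 (-0.54 to 0.68), miR-200a-3p (-0.94 to 0.86), miR-204-5p (-0.073 to 0.12), miR-30a-5p (-0.080 to 0.076), mir-1306 (-0.31 to 0.027), mir-140 (-0.033 to 0.094), mir-323 (-0.019 to 0.092), mir-431 (-0.17 to 0.022) and mir-542-1 (-0.0042 to 0.26).

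Without a change of sign, single libraries moved let-7b-5p (0.11 to 0.29), let-7c-5p (0.16 to 0.36), miR-1b (0.42 to 1.17), miR-141-3p (0.17 to 1.09), miR-338-3p (0.20 to 0.45), miR-345-3p (0.13 to 0.57), miR-34c-5p (-2.20 to -0.99), miR-382-5p (0.15 to 0.34), miR-449a-5p (-2.63 to -1.28), miR-493-3p (-0.88 to -0.42), miR-540-5p (-0.27 to -0.0087), miR-873-3p (0.15 to 0.42) and miR-1247-5p (-1.19 to -0.52) by over 1.5 times.

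A floor of 3 reads limits statements on names under about 10 RPM, and each group of 6 pools limits the precision of every difference.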
